A study of Homo sapiens with 3 samples.

Results

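The genes described are 10 components of interleukin-6 (IL-6) family signaling, out of the 29689 gene symbols in the deposited table. They were chosen by their function, with earlier results of these data known. They are the cytokine genes IL6 and LIF, the receptor genes IL6ST, OSMR and LIFR, the transcription factor gene STAT3, and the feedback inhibitor genes SOCS1, SOCS2, SOCS3 and CISH. All 10 had a value above the floor of the table in each library. These genes were measured in xenograft tumors of SUM-149, a triple-negative breast cancer (TNBC) cell line, grown from cells mixed with Matrigel in the mammary fat pads of female Nu/Nu (nude) mice, which lack T cells. The study asked how the tumor transcriptome differs after inhibition of the kinase CDK2 or of the histone methyltransferase EZH2. There is 1 library for vehicle, 1 for the CDK2 inhibitor dinaciclib (CDK2i) and 1 for the EZH2 inhibitor labelled EPZ6438 (EZH2i), each inhibitor given for 10 days. For SUM-149 xenografts a legend of the study names GSK343 as the EZH2 inhibitor, so the drug behind the EZH2i library is taken from its label. Since each group is a single library, differences have no replicate check and are given without p-values. The labels state no dose for these tumors and do not say whether a library holds 1 tumor or several.

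IL-6 family cytokines share a signaling receptor chain, gp130, which is encoded by IL6ST. IL-6 first binds its own receptor IL6R, whereas LIF signals through a pair of LIFR and gp130 and oncostatin M through OSMR and gp130. The receptors activate JAK kinases, which phosphorylate STAT3. STAT3 then turns on target genes, among them SOCS3, whose product binds gp130 and the JAKs and ends the signal. SOCS1 is known as an inhibitor of JAKs downstream of interferon receptors, while CISH and SOCS2 are known as feedback targets of STAT5 downstream of growth hormone, prolactin and related receptors. In breast tumors IL-6 and LIF can be made by tumor cells and by stroma.

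Values are log2 FPKM, the log of fragments scaled to gene length and to the size of the library, so levels of different genes are given per length. The floor of the table is a value of -9, which stands in the place of an FPKM of 0. A difference from vehicle is called past the thresholds when the fold is above 2 and at least 1 tumor of the pair lies above a log2 FPKM of 3 (8 FPKM). Low values fell on steps of 1 fragment, which gave the CDK2i library 1.14 times and the EZH2i library 1.04 times the depth of the vehicle library. The same steps give, for each gene, the fewest whole fragments that fit its 3 values. The 95% counting intervals below were computed from these fewest fragments by the Clopper-Pearson method. They cover counting error only, they are no narrower than intervals from the true number would be, and they hold nothing of the variation between tumors. Another description of spread is the SD of the difference between EZH2i and CDK2i over the 200 genes nearest in mean level, which includes drug effects.

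The epithelial identity of the tumors was seen in all 8 epithelial markers examined, each above a mean log2 FPKM of 1. Their summed level was 6392 FPKM (vehicle), 13249 FPKM (CDK2i) and 5393 FPKM (EZH2i), and KRT5, KRT14 and KRT17 rose in CDK2i. KRT19 fell by 1.24 on the log2 scale in EZH2i and was at -0.37 in CDK2i. Reads were aligned to the human genome, so fragments of mouse stroma that resemble human genes may be counted. The 8 fibroblast markers summed to 24.5 FPKM (vehicle), 38.4 FPKM (CDK2i) and 28.9 FPKM (EZH2i), with THY1 at the floor in each tumor. The 6 macrophage and leukocyte markers analysed summed to 11.5, 11.1 and 5.30 FPKM, of which CD14 held 8.02, 7.95 and 3.15 FPKM and fell by 1.35 on the log2 scale in EZH2i. CD68 and AIF1, with values worth as few as 1 fragment each in vehicle, were at the floor in both treated tumors. The 4 endothelial markers analysed summed to 0.927, 0.751 and 0.734 FPKM. Ribosomal protein genes held 15.5% of the summed level for vehicle, 8.74% for CDK2i and 8.37% for EZH2i. With library sums made equal without ribosomal protein and mitochondrial genes, the differences of all 10 genes shifted by -0.15 in CDK2i and 0.04 in EZH2i, and the same genes passed.

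In the CDK2i tumor LIF and SOCS3 rose strongly, by 9.59-fold and 10.8-fold, while CISH was at a level 3.67-fold lower than in vehicle, below the expression minimum in both. In the EZH2i tumor SOCS1 rose by 7.50-fold and OSMR by 2.73-fold, and LIF and SOCS3 stayed within 2-fold of vehicle. STAT3 itself stayed within 2-fold of vehicle in both. The plot of levels shows the different members that stand out in each treated tumor.

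**Figure D1:**
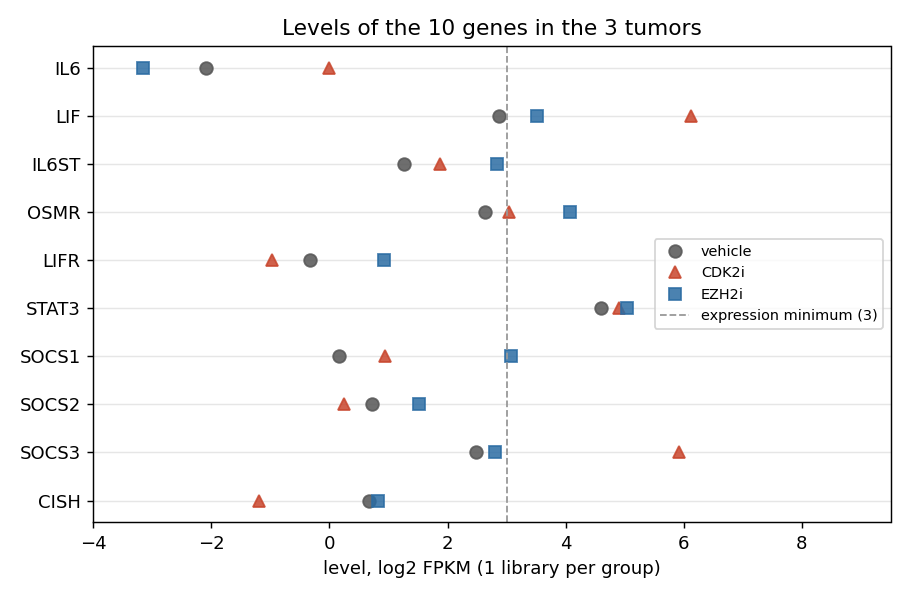
Level of each of the 10 genes (log2 FPKM, horizontal axis) in the vehicle (circle), CDK2i (triangle) and EZH2i (square) libraries, 1 point per library, with the expression minimum of 3 as a dashed line. LIF and SOCS3 lie at 6.13 and 5.93 in CDK2i, far to the right of their other points, and SOCS1 lies at 3.07 in EZH2i against 0.16 in vehicle.

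In CDK2i 4 of the 10 could pass, since the vehicle or the treated level lay above the minimum, and 2 of these, LIF and SOCS3, passed as higher in CDK2i. Among all genes of the series, 3.27% of the 6632 genes that could pass were higher in this comparison and 8.07% were lower. None of the 10 passed as lower, but only STAT3 lay above the minimum in vehicle, so no other member could have passed that way. LIF, SOCS3 and OSMR could pass only through their CDK2i level. Without the expression minimum IL6 was added to the higher members, 3 in all, and CISH was the 1 lower member. For the 20031 genes with no value at the floor this looser rule took 7.97% as higher and 19.1% as lower. The median difference of the 10 genes was 0.51 on the log2 scale, with a range from -1.87 to 3.44. It was -0.11 over all 11109 expressed genes, meaning those that were off the floor in each library and averaged above 1. Over the 6 of the 10 genes that were expressed in this sense it was 0.69.

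In EZH2i again 4 of the 10 could pass, and SOCS1 and OSMR passed as higher. LIF, OSMR and SOCS1 could pass only through their EZH2i level, so again only STAT3 could have passed as lower. The counts in both comparisons, and the ranks given below among genes that could pass, are therefore a description and no test. The whole-table shares were 8.93% higher and 4.42% lower of 7414 genes. With no expression minimum, IL6ST and LIFR joined SOCS1 and OSMR, which gave 4 higher members, and IL6 was the 1 lower member, against 15.5% higher and 10.2% lower over the whole table. The median difference of the 10 genes was 0.73, with a range from -1.06 to 2.91, against 0.19 over all expressed genes. Over the 6 expressed members it was 1.05. In this tumor 9 of the 10 genes lay above vehicle, and in CDK2i 7 did. The share of all genes above vehicle was not computed, so these counts have no background to be read against. The median expressed gene itself lay above vehicle in EZH2i and below it in CDK2i. Both comparisons share the vehicle library.

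**Figure D2:**
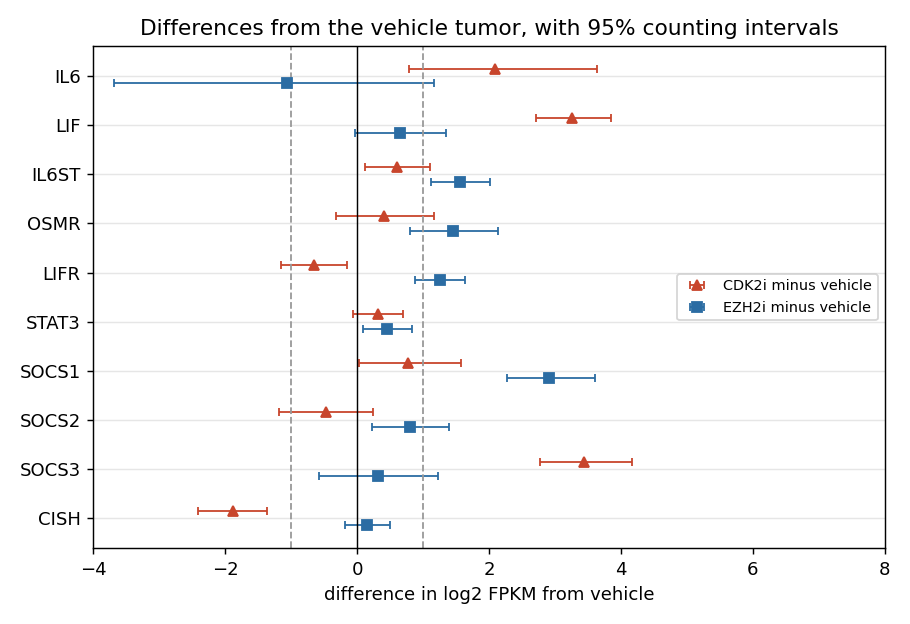
Difference in log2 FPKM from the vehicle library (horizontal axis) for each gene in CDK2i (triangle) and EZH2i (square), with 95% counting intervals as bars and the 2-fold limits as dashed lines. For LIF and SOCS3 in CDK2i and for SOCS1 and IL6ST in EZH2i the whole interval lies beyond the 2-fold limit, and for CISH in CDK2i it lies beyond the limit on the lower side.

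Among the cytokines, LIF (chromosome 22 of GRCh37, 30636442 to 30642748, minus strand) encodes leukemia inhibitory factor. Its level was 7.28 FPKM (vehicle), 69.8 FPKM (CDK2i) and 11.4 FPKM (EZH2i). The CDK2i tumor stood apart, and LIF was there the most abundant of the 10 transcripts, above STAT3. Its log2 difference was 3.26 in CDK2i (95% counting interval 2.72 to 3.85), the 14th highest of the 6632 genes that could pass. In EZH2i it was 0.65 (-0.04 to 1.35), an interval that includes 0. The spread at this level was 0.75. Whether more cells made LIF or each cell made more cannot be told apart in bulk RNA, for this gene as for all others here.

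IL6 (chromosome 7, 22765503 to 22771621, plus strand) was the least abundant of the 10 in vehicle and in EZH2i. Its levels were 0.234 FPKM (vehicle), 0.992 (CDK2i) and 0.112 (EZH2i), which are whole multiples of 6, 29 and 3 fragments. All 3 levels lay below the expression minimum. The log2 difference was 2.08 in CDK2i (0.79 to 3.64) and -1.06 in EZH2i (-3.69 to 1.17), and the latter could not be told from 0 at this depth. The spread at this low level was 1.68. With a pseudocount of 1 FPKM the CDK2i value was 0.69.

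Fibroblast markers went in different directions. LUM passed as higher in CDK2i with a log2 difference of 1.02, and COL1A1 was at 0.95 there. In EZH2i they were at 0.615 and 0.307. COL1A2, at most 0.723 FPKM, was at 2.60 in CDK2i and -0.32 in EZH2i. COL3A1 was lower in both, at -1.44 and -2.07. DCN was at -0.70 in CDK2i and 0.76 in EZH2i. At low levels, PDGFRA was at 1.62 and -0.06, and PDGFRB at -0.19 and -0.70. The part of stromal fragments in the LIF and IL6 values was not tested.

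Of the receptors, OSMR passed the thresholds, in EZH2i, while IL6ST and LIFR stayed below the expression minimum. IL6ST (chromosome 5, 55230923 to 55290850, minus strand), the shared gp130 chain, measured 2.40 FPKM (vehicle), 3.66 FPKM (CDK2i) and 7.11 FPKM (EZH2i). The log2 difference was 1.57 in EZH2i (1.13 to 2.02), but at 7.11 FPKM the gene stayed just under the minimum of 8. With library sums made equal over all genes it lay above the minimum and passed. In CDK2i the difference was 0.61 (0.12 to 1.10). OSMR (chromosome 5, 38845960 to 38945698, plus strand), the oncostatin M receptor chain, was at 6.19, 8.24 and 16.9 FPKM. It rose in EZH2i with a difference of 1.45 (0.80 to 2.14) and was at 0.41 in CDK2i (-0.32 to 1.17).

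LIFR (chromosome 5, 38474770 to 38608456, minus strand), which pairs with gp130 to bind LIF, measured 0.797 FPKM (vehicle), 0.507 FPKM (CDK2i) and 1.90 FPKM (EZH2i). It was thus lowest in the tumor where LIF was highest. Its log2 difference was -0.65 in CDK2i (-1.15 to -0.16) and 1.25 in EZH2i (0.88 to 1.64), within its spread of 1.47. IL6R, the receptor chain specific for IL-6, was at 1.11, 0.990 and 3.09 FPKM, log2 differences of -0.16 and 1.48, also under the minimum.

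A ratio of genes within a library does not depend on how libraries were scaled to each other. OSMR stood at 2.58 times IL6ST in vehicle, 2.25 times in CDK2i and 2.38 times in EZH2i, so the proportion of these chains was similar in all 3 tumors. LIFR stood at 0.332, 0.139 and 0.267 times IL6ST, lowest in CDK2i. IL6R stood at 0.461, 0.271 and 0.435 times IL6ST. All 3 ratios were lowest in CDK2i and highest in vehicle.

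The differences in EZH2i ran with transcript composition over the whole table, and this bears on the receptors. Across 10199 expressed genes outside the ribosomal protein family, which are not independent replicates, Spearman's rho of the EZH2i difference was -0.571 with GC content and 0.453 with transcript length. For CDK2i it was 0.036 and 0.091. The longest transcripts of IL6ST, LIFR and OSMR are low in GC and long, with 36.5%, 37.1% and 45.1% GC and 9027, 10553 and 5526 bases, against medians of 49.1% and 3667 bases. With the trend over both properties removed, the EZH2i differences were 0.88 for IL6ST, 0.55 for LIFR and 1.13 for OSMR. OSMR was then the 1 receptor of these beyond 2-fold. IL6R, which lay below the expression minimum, was at 1.37 with the trend removed, also beyond 2-fold. The longest SOCS1 transcript has the opposite composition, 69.1% GC and 1784 bases, and its difference was 3.68 with the trend removed.

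**Figure D3:**
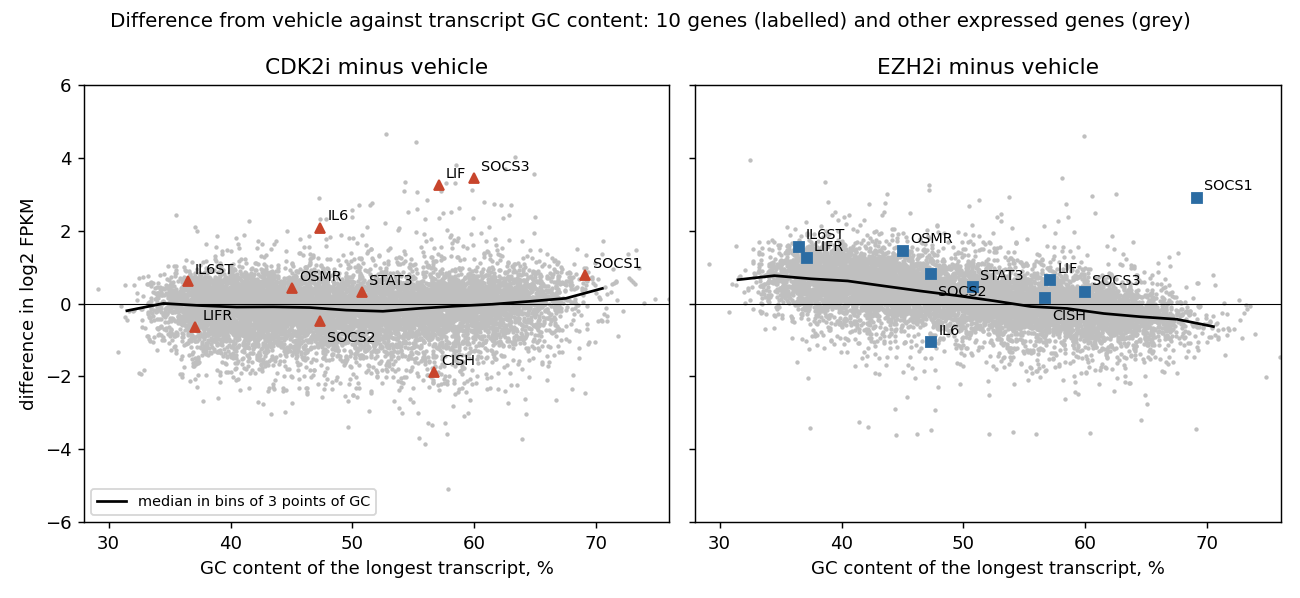
Difference in log2 FPKM from vehicle (vertical axis) against GC content of the longest transcript in percent (horizontal axis) in CDK2i (left) and EZH2i (right). Grey points are those of 10199 expressed genes that lie within the axes, the line is their median in bins of 3 points of GC that hold at least 20 genes, and labelled points are the 10 genes, which in EZH2i place IL6ST and LIFR near the GC-poor end and SOCS1 far above the line at the GC-rich end.

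STAT3 (chromosome 17, 40465342 to 40540558, minus strand) was the most abundant of the 10 in vehicle and EZH2i. It measured 24.1 FPKM (vehicle), 30.04 FPKM (CDK2i) and 33.0 FPKM (EZH2i). The log2 differences of 0.32 (-0.05 to 0.69) and 0.45 (0.08 to 0.83) were within its spread of 0.77. STAT3 acts after phosphorylation, which RNA levels do not measure.

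Among the feedback inhibitors, SOCS3 (chromosome 17, 76352859 to 76356158, minus strand) measured 5.61 FPKM (vehicle), 60.8 FPKM (CDK2i) and 6.98 FPKM (EZH2i). The CDK2i tumor stood apart from the other two, as for LIF. The log2 difference was 3.44 in CDK2i (2.78 to 4.17), the 10th highest of the 6632 genes that could pass, and 0.32 in EZH2i (-0.58 to 1.23), with a spread of 0.75. SOCS3 was at 0.232 times STAT3 in vehicle, 2.02 times in CDK2i and 0.212 times in EZH2i.

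SOCS1 (chromosome 16, 11348274 to 11350061, minus strand) measured 1.12 FPKM (vehicle), 1.92 FPKM (CDK2i) and 8.39 FPKM (EZH2i), so that here the EZH2i tumor stood apart. The log2 difference was 2.91 in EZH2i (2.28 to 3.60), the 14th highest of the 7414 genes that could pass, and 0.78 in CDK2i (0.02 to 1.57). The spread was 0.99. Its EZH2i level lay just above the minimum of 8 FPKM, and after centring each library on its median expressed gene SOCS1 fell below that minimum and was not called. It stood at 0.046 times STAT3 in vehicle, 0.064 in CDK2i and 0.254 in EZH2i. Because SOCS1 went against the composition trend, the window around its start, from RefSeq on GRCh38.p14 (chr16:11256155-11256454, minus strand, 250 bases before to 50 after the start), is shown. It has 74.0% GC and held no STAT motif as defined below, which says nothing of the factor itself.

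SOCS1 window: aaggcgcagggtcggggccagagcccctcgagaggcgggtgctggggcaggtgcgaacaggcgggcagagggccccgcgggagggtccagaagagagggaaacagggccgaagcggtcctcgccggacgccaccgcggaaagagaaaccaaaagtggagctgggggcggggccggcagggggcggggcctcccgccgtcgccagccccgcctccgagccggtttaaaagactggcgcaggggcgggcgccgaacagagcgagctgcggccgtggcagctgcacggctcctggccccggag

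CISH (chromosome 3, 50643920 to 50649205, minus strand) measured 1.60 FPKM (vehicle), 0.435 FPKM (CDK2i) and 1.78 FPKM (EZH2i). It was low in the tumor where SOCS3 was high, and vehicle and EZH2i were close. The log2 difference was -1.87 in CDK2i (-2.41 to -1.36) and 0.16 in EZH2i (-0.19 to 0.50). The CDK2i value exceeded the spread of 1.40, yet all 3 levels lay below the expression minimum, and lower values of this kind were common in CDK2i. With a pseudocount of 1 FPKM the value was -0.85, within 2-fold. SOCS2 (chromosome 12, 93963590 to 93977263, plus strand), the close relative of CISH, was at 1.64, 1.19 and 2.87 FPKM. Its log2 differences of -0.47 (-1.18 to 0.23) and 0.81 (0.23 to 1.40) were within its spread of 1.26.

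The STAT binding consensus TTCNNNGAA, which reads the same on both strands, was searched in the RefSeq windows of GRCh38.p14 that run from 250 bases before to 50 after each annotated start. Of the 10 genes, 8 had a window, 11 windows in all, and LIF and SOCS2 had none in the table. The window of CISH (chr3:50611725-50612024, minus strand) held 4 matches, TTCCTGGAA, TTCTTGGAA, TTCTAGGAA and TTCCGGGAA, the first beginning at position -241 and the last at -112 from the start. This was the highest number in any of the 35116 windows of the table, reached by 7 of them. At least 1 match was present in 7.66% of all windows and at least 3 in 0.0484%. LIFR had 1 match in each of 2 of its 3 windows, and the windows of IL6, IL6ST, OSMR, STAT3, SOCS1 and SOCS3 had none. Sequence outside these windows was not searched, so a match elsewhere near a gene, SOCS3 included, would not be seen. The CISH window is printed because of these clustered matches, which are in capitals, and they describe the sequence and no measured binding.

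CISH window: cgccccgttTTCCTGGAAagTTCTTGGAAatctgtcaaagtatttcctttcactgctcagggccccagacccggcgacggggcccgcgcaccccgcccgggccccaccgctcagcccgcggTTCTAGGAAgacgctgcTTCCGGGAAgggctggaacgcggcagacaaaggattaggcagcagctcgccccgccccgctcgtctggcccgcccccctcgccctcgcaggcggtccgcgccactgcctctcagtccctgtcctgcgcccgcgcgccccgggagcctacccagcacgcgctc

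Taken as a set of 4, SOCS1, SOCS2, SOCS3 and CISH summed to 9.97 FPKM (vehicle), 64.3 FPKM (CDK2i) and 20.02 FPKM (EZH2i). SOCS3 made up 56.3% of this sum in vehicle, 94.5% in CDK2i and 34.9% in EZH2i. SOCS1 made up 11.2%, 2.98% and 41.9%, and was the largest part in EZH2i. The share of CISH was 16.0% in vehicle, 0.676% in CDK2i and 8.87% in EZH2i.

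**Figure D4:**
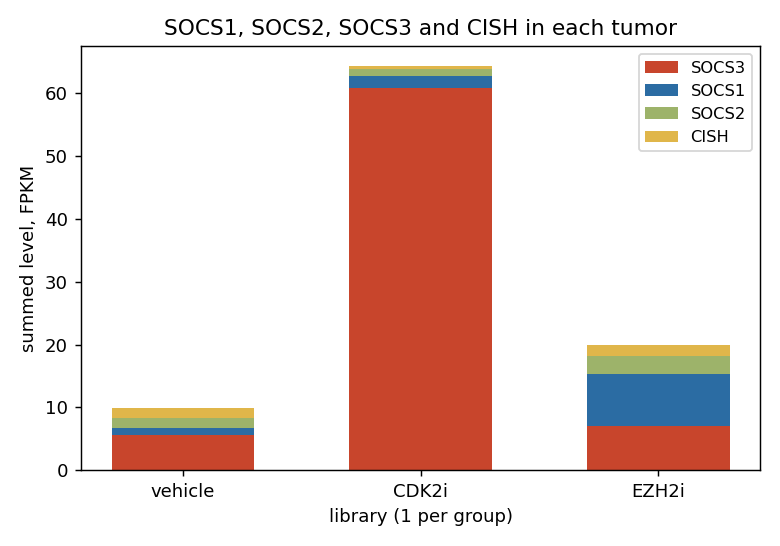
Summed level of SOCS3, SOCS1, SOCS2 and CISH in FPKM (vertical axis, from 0) in each of the 3 libraries, stacked by gene. The CDK2i bar reaches 64.3 FPKM and is nearly all SOCS3, while in the EZH2i bar of 20.02 FPKM SOCS1 is the largest part.

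Set directly against each other, the treated tumors differed past the thresholds in 4 of the 5 members that could pass. SOCS1 and SOCS3 each could pass only through the tumor where the gene was high. OSMR and SOCS1 were higher in EZH2i than in CDK2i, by 1.04 (0.47 to 1.62) and 2.13 (1.65 to 2.63) on the log2 scale. LIF and SOCS3 were lower, by -2.61 (-3.08 to -2.18) and -3.12 (-3.76 to -2.53). Of the 7394 genes that could pass here, 17.5% were higher and 6.53% lower. Below the expression minimum IL6 was at -3.15, LIFR at 1.91, SOCS2 at 1.27 and CISH at 2.03. Without that minimum 5 members were higher and 3 lower, against 28.9% and 10% over the whole table. This comparison shares a library with each of those above.

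Most of the other ligand, receptor, JAK and STAT genes lay below the expression minimum. Among 9 further ligand genes, of which 1 could pass in each comparison, none did, and CLCF1 and IL11 were the most abundant. CLCF1, a cytokine that signals through the CNTF receptor, was at 17.9, 19.6 and 22.1 FPKM, and IL11, which signals through gp130, was at 2.77, 3.09 and 5.86. OSM, the oncostatin M gene, measured 0.096 FPKM (vehicle), 0.705 FPKM (CDK2i) and 0.123 FPKM (EZH2i), multiples of 3, 25 and 4 fragments. This resembled the order of LIF and SOCS3, at a level far below the minimum. None of the 5 further receptor genes passed, of which 2 could in each comparison, with IL27RA and IL11RA the most abundant, at log2 differences of -0.14 and -0.32 in CDK2i and 0.32 and -0.45 in EZH2i. IL27RA encodes a receptor chain for IL-27.

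Of the 4 JAK genes 2 could pass in each comparison, TYK2 and JAK1, and neither did. TYK2 was at 46.7, 50.8 and 46.8 FPKM and JAK1 at 7.20, 12.4 and 13.5 FPKM, log2 differences for JAK1 of 0.78 and 0.91. JAK2 was at 0.654, 1.30 and 2.14 FPKM, and JAK3 at 0.110, 0.067 and 0.116 FPKM. JAK1 and JAK2 were thus lowest in vehicle, at differences of less than 2-fold for JAK1. JAK2, below the expression minimum, had log2 differences of 0.99 in CDK2i and 1.71 in EZH2i. TYK2, the most abundant, was at 0.12 and 0.002. With the composition trend removed JAK1 was at 0.55 and JAK2 at 1.09 in EZH2i. Of the 6 other STAT genes 3 could pass in each comparison and none did, led by STAT6 at 83.3, 84.7 and 81.8 FPKM and STAT2 at 32.2, 30.1 and 35.8 FPKM. STAT5A and STAT5B, whose products act on CISH and SOCS2, were at -0.05 and -0.12 in CDK2i and 0.18 and 0.07 in EZH2i. Of 9 growth factor and cytokine receptor genes that act through STAT5, none reached the minimum. The 8 of them off the floor went in different directions, from -1.76 (EPOR, the erythropoietin receptor gene) to 3.33 (GHR, the growth hormone receptor gene) in CDK2i, and from -1.69 (IL3RA) to 2.94 (PRLR, the prolactin receptor gene) in EZH2i.

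Of the 4 other SOCS genes, 2 could pass in EZH2i and 1 in CDK2i. SOCS4 rose in EZH2i, from 4.88 FPKM in vehicle to 11.2, a log2 difference of 1.20. It was at 2.16 FPKM in CDK2i, a difference of -1.18 that did not pass, and at 0.57 in EZH2i with the composition trend removed. SOCS5, SOCS6 and SOCS7 did not pass. Of 11 genes listed as other negative regulators, 8 could pass in EZH2i, of which 2 rose, and 7 in CDK2i, of which none passed. The whole-table shares of higher genes are 8.93% in EZH2i and 3.27% in CDK2i. PTPN11, which encodes the phosphatase SHP2 that binds gp130, had a log2 difference of 1.18 in EZH2i and 0.72 in CDK2i. ADAM17, a protease that sheds the IL-6 receptor, was at 1.18 and 0.63. Its place in this list does not make it an inhibitor of the pathway. With the composition trend removed PTPN11 and ADAM17 were at 0.65 and 0.61 in EZH2i.

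**Figure D5:**
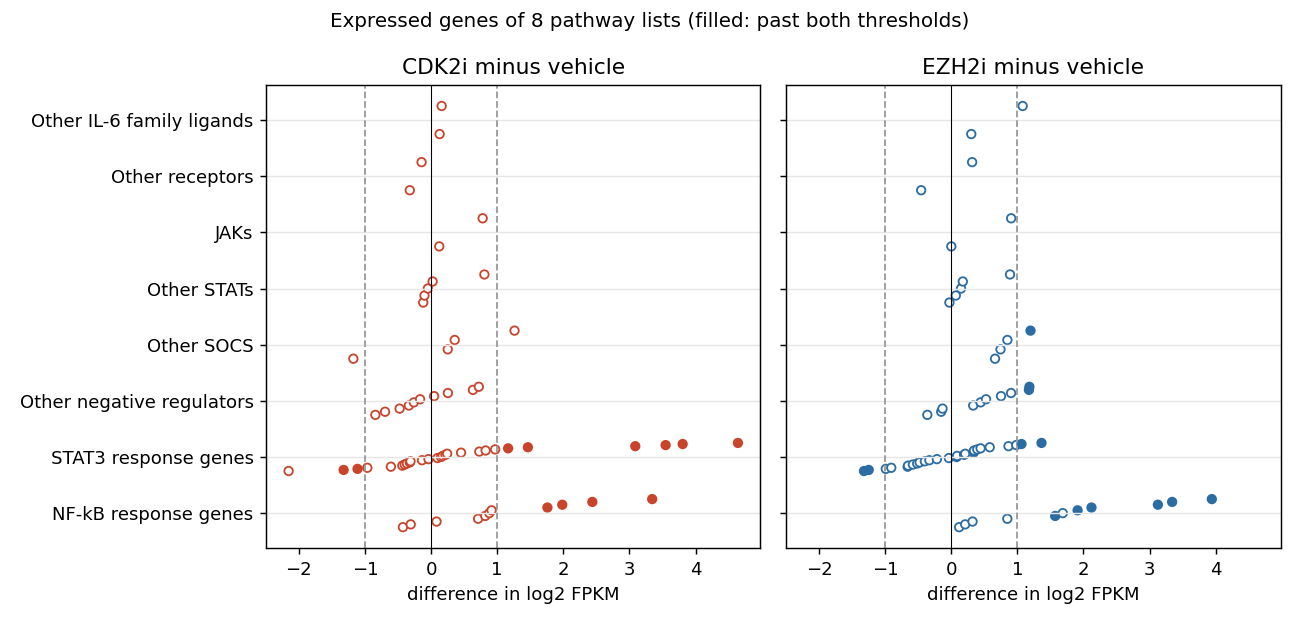
Difference in log2 FPKM from vehicle (horizontal axis) in CDK2i (left) and EZH2i (right) for the expressed genes of 8 lists, 1 point per gene, filled where a gene passed both thresholds, with 2-fold limits as dashed lines. Kinases, STATs and receptors hold no filled point, while the STAT3 response list has 6 filled points on the right and 2 on the left in CDK2i.

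Of 32 genes of this list analysed here, 23 could pass in CDK2i, of which 6 rose and 2 fell, and 24 could pass in EZH2i, of which 2 rose and 2 fell. The whole-table shares are 3.27% higher and 8.07% lower in CDK2i and 8.93% and 4.42% in EZH2i. Over the 27 expressed members the median difference was 0.15 in CDK2i and 0.08 in EZH2i, against -0.11 and 0.19 over all expressed genes. The 6 that rose in CDK2i were FOS (4.64), IER3 (3.80), JUNB (3.55), ZFP36 (3.09), PIM3 (1.46) and LCN2 (1.16). FOS, IER3, JUNB and ZFP36 are known as immediate early genes that respond to many stimuli, PIM3 encodes a kinase and LCN2 the acute phase protein lipocalin 2. BCL6, a transcriptional repressor, fell by 1.11 and TNFRSF1A, a TNF receptor, by 1.32.

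In EZH2i, ICAM1, an adhesion molecule, rose by 1.37 and MCL1, a survival factor of the BCL2 family, by 1.06. The acute phase genes SERPINA3 and SAA1 fell by 1.32 and 1.25 in EZH2i. MCL1 and SAA1 were at 0.79 and -0.58 with the composition trend removed.

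Of 12 response genes of NF-kB, a regulator that also acts on IL6, 10 could pass in each comparison, and 4 rose in CDK2i (TNF, CCL20, CXCL2 and TNFAIP3) and 6 in EZH2i (CXCL8, IL1A, IL1B, TNFAIP3, CXCL2 and CCL20), with none lower, against whole-table shares of 3.27% and 8.93% higher. TNFAIP3, CXCL2 and CCL20 passed in both. The median over 11 expressed members was 0.88 in CDK2i and 1.69 in EZH2i, against -0.11 and 0.19 over all expressed genes. The largest were TNF at 3.34 in CDK2i and CXCL8 at 3.94 in EZH2i. This list, like the others, was fixed with earlier results of these data known. The study itself names TNF, CXCL2 and CCL20 among the genes raised by the inhibitors. The counts and shares are therefore a description and no test of the list.

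LIF had the largest sum of absolute differences of the expressed members. The genes nearest to it in both differences, by Euclidean distance over 11108 expressed genes in 3 libraries, were SNORD3B-1 at a distance of 0.31, ZFP36 at 0.35 and KLF10 at 0.37. ZFP36, which encodes a protein that destabilizes AU-rich mRNAs, had differences of 3.09 in CDK2i and 0.34 in EZH2i. KLF10, a transcription factor gene, had 2.89 and 0.62. SNORD3B-1, a small nucleolar RNA gene with close copies that could share its reads, had 3.07 and 0.40.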

How the data were processed

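RNAseq was performed on 3 SUM-149 xenograft libraries, 1 each for vehicle, CDK2i and EZH2i, assigned to the table's columns by their labels. The authors deposited log2 FPKM values to 3 decimals, with hg19 (GRCh37) as reference. The submitters' processing notes name CASAVA and STAR. The versions, the counting tool and the gene lengths are not given in the sources used here. Without raw counts and replicates, no count model and no test could be used. The study's thresholds for fold and expression were kept and its limma p-value was not computed. The 10 genes and all lists were chosen with earlier results of these data known.

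Depth ratios came from the most frequent difference between libraries among low genes (559 and 557 genes). The absolute depth was not derived. GENCODE 44 on GRCh37 gave gene positions and, for the longest transcript, its length and GC content. Both were known for 92.6% of the expressed genes and for all 10 genes. The composition trend was a polynomial of degree 3 in each of GC content and log length, fitted without ribosomal protein genes. Symbols were matched through older names where needed (CXCL8 is listed as IL8). List genes named in the text were those past the thresholds in either comparison, or the most abundant ones where none passed, besides all JAKs and IL6R. A gene that the rule would name is not reported here, and OSM, STAT5A, STAT5B, GHR, IL3RA, PRLR and the stromal and epithelial markers were named after their values were seen. Calculations were tested on simulated data. Python 3.11, numpy 2.4.6, pandas 2.3.3, scipy 1.17.1 and matplotlib 3.10.9 were used.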

Additional observations from a re-analysis of the deposited data

How the results depend on the processing

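LIF and SOCS3 in CDK2i passed under all 11 alternatives tried, and the count for CDK2i was 4 in place of 2 with no expression minimum. The count for EZH2i, 2 as reported, was 5 with no expression minimum, 1 with a fold threshold of 3 (SOCS1), 1 after centring on the median expressed gene (OSMR) and 0 with a minimum of log2 FPKM 5, which neither gene reaches. It was 3 with a fold threshold of 1.5, which added LIF. A minimum of log2 FPKM 1, or library sums made equal over all genes, also gave 3, with IL6ST added in both. Of 120 differences of single genes recomputed under other scalings, pseudocounts or with the composition trend removed, 113 stayed inside their counting interval. With a pseudocount of 1 FPKM, IL6 (0.69) and CISH (-0.85) in CDK2i and LIFR (0.69) and SOCS1 (2.15) in EZH2i left it. With the composition trend removed, IL6ST (0.88), LIFR (0.55) and SOCS1 (3.68) in EZH2i left it. The shifts of the other scalings were too small to bring any difference out of its interval, so for those the count is no test. Another scaling shifted every difference alike, by between -0.15 and 0.18 in CDK2i and between -0.25 and 0.24 in EZH2i. The difference of CISH in EZH2i changed sign with centring (-0.09), and no other difference of the 10 genes did. No paired analysis was possible because there is 1 library per group. Depth limits IL6, at a multiple of 3 fragments in EZH2i.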
